A study of Caenorhabditis elegans with 2 samples.

Results

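The autosomal distal intergenic peaks of a chromatin immunoprecipitation sequencing (ChIP-seq) study of the C. elegans forkhead factor FKH-10 are described here. A peak was included when it came from the list called on both replicates together, lay on chromosome I, II, III, IV or V, and had its summit in no protein-coding gene. The summit also had to lie outside the window from 1000 bp upstream to 500 bp downstream of every protein-coding 5' end and more than 100 bp from any tRNA, snoRNA or snRNA gene. These positions selected 1284 of the 7443 pooled peaks, or 21.5% of the 5973 autosomal ones. The authors labelled the pooled list as peaks and background, made as input to a later comparison of the replicates. It thus also holds background regions, and 378 of the 7443 (5.08%) were in their thresholded list. A peak below is any row of the list and need not be a site of binding. No measured height entered the choice. Both libraries came from whole late embryos of mixed sex and unknown age. They formed 1 group of 2 biological replicates, with fragments of 150 to 350 bp per the labels. Animals were labelled as strain OP337, with the unc119(ed3) mutation and a wgIs377 insertion that carries fkh-10 fused to TY1, EGFP and FLAG tags together with unc119. The strain number and the insertion number do not match each other, and the labels name no driver other than the fkh-10 construct and no separate untagged group. In whole embryos a peak cannot be assigned to a cell type. With 1 group there is no contrast between conditions, so the values below are described with 95% intervals for counting error only, and the replicates are set side by side.

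Forkhead proteins bind DNA through a winged-helix domain, and many of them recognise variants of the core RTAAAYA, where R stands for A or G and Y for C or T. Distal intergenic DNA in C. elegans holds enhancers, genes for small and long non-coding RNAs, pseudogenes and repeats, while most regulatory DNA of this compact genome lies near 5' ends. A called ChIP-seq peak marks DNA recovered with the antibody, which a background region of a list need not do.

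Sequences of 201 bp around 5 of the 20 highest distal summits are printed here because they show the base composition and the short words that the results turn on. They come from the RefSeq genome of WBcel235, which equals ce11, on the plus strand. Capitals mark the word GAGAGA or its reverse complement TCTCTC, the word CTGCGTCTC or its reverse complement GAGACGCAG, and GTTCGANNC in either orientation, the letters of the B box found inside tRNA genes. Each name gives the nearest protein-coding gene and the position.
alh-3, with cel-mir-51, chrIV:11026026-11026226: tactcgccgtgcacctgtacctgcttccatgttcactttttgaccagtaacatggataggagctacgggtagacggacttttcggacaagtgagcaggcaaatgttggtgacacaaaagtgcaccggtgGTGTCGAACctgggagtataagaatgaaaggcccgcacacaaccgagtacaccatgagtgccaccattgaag
K10G9.2, chrIII:10284257-10284457: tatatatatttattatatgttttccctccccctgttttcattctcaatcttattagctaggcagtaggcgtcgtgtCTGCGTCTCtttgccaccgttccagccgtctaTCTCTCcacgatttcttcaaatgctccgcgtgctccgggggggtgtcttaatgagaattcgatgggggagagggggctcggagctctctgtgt
C48A7.16, chrIV:7402185-7402385: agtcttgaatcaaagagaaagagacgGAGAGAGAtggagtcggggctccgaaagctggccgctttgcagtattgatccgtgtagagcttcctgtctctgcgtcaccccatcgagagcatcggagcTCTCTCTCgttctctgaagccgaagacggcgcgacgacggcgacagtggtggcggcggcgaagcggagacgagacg
col-83, chrII:11043068-11043268: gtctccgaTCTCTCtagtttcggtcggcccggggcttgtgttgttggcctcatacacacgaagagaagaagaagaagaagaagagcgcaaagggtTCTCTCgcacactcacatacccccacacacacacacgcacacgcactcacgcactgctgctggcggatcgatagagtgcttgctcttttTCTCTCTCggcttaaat
nuo-4, chrIII:7155745-7155945: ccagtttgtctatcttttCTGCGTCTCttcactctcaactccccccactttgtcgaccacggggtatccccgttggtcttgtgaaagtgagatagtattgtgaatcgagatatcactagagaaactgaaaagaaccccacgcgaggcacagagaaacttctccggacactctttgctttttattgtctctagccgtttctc
The K10G9.2 peak holds 1 copy of each of the first 2 words, the C48A7.16 and col-83 peaks hold 4 copies each of the short word with overlaps counted, and the nuo-4 peak holds only the word of 9 bases. The cel-mir-51 peak holds neither word and a B box match, which lies in the annotated span of F36H1.17, a non-coding RNA gene. Among all 20 highest distal peaks, 10 held the short word and 6 the word of 9 bases, and some held both or neither.

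The highest distal intergenic peak lay beside a microRNA gene and within 100 bp of the non-coding RNA gene F36H1.17. Its summit at chrIV:11026126 was 14 bp upstream of cel-mir-51 (chrIV:11026013-11026112, minus strand), 256 bp from the 3' end of alh-3, an aldehyde dehydrogenase gene, and 2163 bp from hrg-5, a heme-responsive gene. Its signal, the peak height in the authors' units, was 79.06 in the pooled list, 48.37 in the list of replicate 1 and 36.45 in that of replicate 2. It thus stood at rank 37 of the 27900 peaks of replicate 1 and at rank 45 of the 30000 of replicate 2. Another member of the mir-51 family, cel-mir-52 (chrIV:14034008-14034107, plus strand), held the summit of the distal peak at chrIV:14034086, 78 bp from the start of the hairpin. That peak had a pooled signal of 42.25, with 21.88 in replicate 1 and 26.55 in replicate 2. A neighbouring peak at chrIV:14033875, with a pooled signal of 34.19, overlapped the same replicate peaks and is no separate observation in the replicates. The mature a-strand RNAs of both genes, from the RefSeq annotation, are shown with the seed in capitals.
mir-51: tACCCGTAgctcctatccatgtt
mir-52: cACCCGTAcatatgtttccgtgct
They share the seed ACCCGTA, and this family is known for roles in embryonic development. Another non-coding RNA gene, Y37A1B.335, also spanned the cel-mir-52 summit, so that peak cannot be assigned to one transcript. Nor can the peak at chrIV:11026126, which had both cel-mir-51 and F36H1.17 within 100 bp. B box letters were rare in distal peaks. They occurred within 100 bp of 16 of the 1284 summits (1.25%), in 1.83% of the windows 500 bp to either side and in 1.53% of windows tiled over all autosomal DNA that meets the positional rule. The share was 49.1% for the autosomal peaks at tRNA, snoRNA or snRNA genes. The positional rule leaves out summits within 100 bp of a tRNA gene, so the contrast with that class follows largely from how the classes were made.

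Few distal peaks lay at any microRNA. In all, 12 peaks (0.935%, exact binomial interval 0.484 to 1.63%) had a summit within 1000 bp of a miRNA gene, and that distance covers 0.650% of the bases that meet the same positional rule, which places 8.35 peaks there in proportion, a share inside the interval. These bases are called eligible below and amount to 19.3 Mb. After the mir-51 family peaks the pooled signals ran from 25.67 down to 16.62. The highest of them lay 371 bp upstream of cel-mir-2218b (18.15 in replicate 1, 10.59 in replicate 2). A summit lay 7 bp inside cel-mir-72, with a signal of 21.40 (12.97 in replicate 1, 10.41 in replicate 2). One upstream of the cel-mir-42, cel-mir-43 and cel-mir-44 cluster had 17.16 (8.84 and 9.51). The peak near cel-mir-48, a let-7 family gene of developmental timing, had 18.11 and a match in replicate 1 alone (12.80), and that near cel-mir-1, the muscle miRNA, had 17.99 and a match in replicate 2 alone (7.59).

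The distal peaks were spread at 66.7 peaks per Mb of eligible bases (exact Poisson interval 63.1 to 70.4). The same list held 83.0 per Mb in promoter windows (79.3 to 86.8), 73.5 in introns (70.0 to 77.0) and 55.2 in exons (51.8 to 58.8). The distal density was thus below that of promoter windows and above that of exons, with intervals that did not overlap, and its interval overlapped that of introns. By height the distal peaks were near the middle of the list: the lowest signal was 16.15, the median 19.0 and the highest 79.06, against a median of 19.13 over all autosomal peaks. All 1284 had the usual width of 336 bp, as had all but 58 of the other 4689 autosomal peaks, so a summit is the middle of a fixed interval and width carries no information.

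Few distal peaks were in the most stringent list. The authors' list thresholded by the irreproducible discovery rate, which compares peak ranks between replicates, held 42 of the 1284 distal peaks (3.27%, interval 2.37 to 4.40%). Its share was 5.08% of all 7443 pooled peaks and 4.35% of the 5973 autosomal ones, 6.26% in promoter windows, 2.23% in introns and 2.19% in exons. The distal interval held the autosomal share and lay below that of all pooled peaks and that of promoter windows. The thresholded list held 260 autosomal peaks. Distal peaks made up 16.2% of the strongest 260 autosomal peaks (11.9 to 21.2%), and these were the same 42 peaks. Distal peaks made up 23.0% of the following 740 (19.99 to 26.2%), an interval that overlaps the first. In each later group of about 1000 they made up between 20.2 and 23.1%. The threshold falls between a signal of 36.78, the lowest distal peak inside it (chrV:12465553, nearest gene egl-10), and 36.49, the highest outside it (chrV:11990675).

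After cel-mir-51, the highest distal peaks lay between genes of varied function. The peak at place 2, chrI:13373090, between sptf-3, an Sp-family transcription factor gene at 6202 bp, and C01A2.9 at 3749 bp, had a pooled signal of 78.62, with 34.25 in replicate 1 and 38.40 in replicate 2. Places 1 and 2 stood apart, since place 3 followed at 53.94. The latter, chrIV:8375577, lay 206 bp from the 3' end of aagr-1, an acid glucosidase gene, and 145 bp from that of D2096.7, and had 33.97 and 19.01 in the replicates. Place 4, chrIII:10284357, 1566 bp from K10G9.2 and 2782 bp from pad-2, a protein O-fucosyltransferase gene, had 53.60, with 31.96 and 20.51. It is one of 2 among the 20 that held the forkhead core, beside place 3.

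The next peaks are given with the genes on both sides. The peak at chrIV:12771627, between ZK897.10 at 5625 bp and unc-31, the CAPS protein of dense-core vesicle release, at 2240 bp, had a signal of 45.51 (25.09 in replicate 1, 22.72 in replicate 2). That at chrI:7518567, between C26C6.9 at 3441 bp and goa-1, a G protein alpha subunit, at 3549 bp, had 46.24 (24.24 and 36.03). A peak of 46.21 lay between magu-3, a guanylate kinase family gene, at 1212 bp and pbs-4, a proteasome subunit gene, at 2327 bp. One of 46.73 lay between tcc-1 at 2081 bp and csn-1, a COP9 signalosome subunit gene, at 3298 bp. One of 44.96 lay between ogt-1, the O-GlcNAc transferase gene, at 2048 bp and nuo-4, a mitochondrial complex I subunit gene, at 181 bp. At chrII:11043168 the peak between cey-1, a Y-box RNA-binding protein gene, and col-83, a cuticle collagen gene 906 bp away, had 45.58, with nearly equal heights of 22.86 and 22.97 in the replicates. The peak at chrIV:7402285 between pitr-1, a phosphate transporter gene, and C48A7.16 had 48.17 (21.92 and 25.12) and the highest G and C content of the 20, 59.2%. These genes are neighbours by position only, and no expression was measured.

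The others of the leading 20 ranged from 44.07 to 53.36 in the pooled list. They lay between W06H8.6 and K08B12.3, between cnt-1 (an Arf GTPase-activating protein) and Y17G7B.17, between F54F12.1 and Y39E4B.6, between ssu-2 and Y67A10A.7, and between Y105E8A.1 and Y105E8A.2. The last of them lay between T06A4.1 and zfh-2 (a zinc finger homeobox factor), between F58H1.6 and F58H1.5, between Y47A7.2 and ttc-37, and between jmjd-2 (a histone demethylase) and hmg-1.1 (an HMG-box chromatin protein). Ranks in the replicates were most uneven for a pair of the leading 20. The peak 8964 bp from zfh-2 stood at 126 in replicate 1 (31.22) and 1327 in replicate 2 (13.63), while the one between tcc-1 and csn-1 stood at 1473 in replicate 1 (16.43) and 90 in replicate 2 (30.81).

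Each of the 42 thresholded distal peaks had a match in both replicates. The thresholded list is made by comparing the replicates, so this match is no separate support. The heights of these 42 peaks ran from 14.39 through a median of 22.88 to 48.37 in replicate 1, and from 10.18 through 20.81 to 38.40 in replicate 2. Among all distal peaks, 1115 overlapped a replicate 1 peak by at least 1 bp (86.8%, against 86.3% of autosomal peaks) and 944 a replicate 2 peak (73.5%, against 75.5%). Both replicates matched 781 (60.8%), replicate 1 alone 334 (26.01%), replicate 2 alone 163 (12.7%) and neither 6. Among the strongest 7443 of replicate 1 and likewise of replicate 2, a match was found for 224 (17.4%, interval 15.4 to 19.6%), where 18.5% of autosomal peaks had both. Each of these shares lay close to its background, so the distal peaks were matched about as often as autosomal peaks in general. The pooled list and the replicate lists come from the same reads, so a match is no separate observation. Across the 781 peaks in both, the heights in replicates 1 and 2 were nearly unrelated in rank (Spearman's rho 0.0959), while each was related to the pooled height (0.571 and 0.520), which is made from the same reads. All 781 had passed the floor of the pooled list, where the lowest distal signal was 16.15. Choosing peaks by a height made from both replicates can itself lower this rho, and the size of that effect was not tested. How well the replicates match therefore cannot be read from this rho alone. The same holds for the 42 thresholded peaks, a smaller choice of high peaks, where rho was -0.192.

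**Figure D1:**
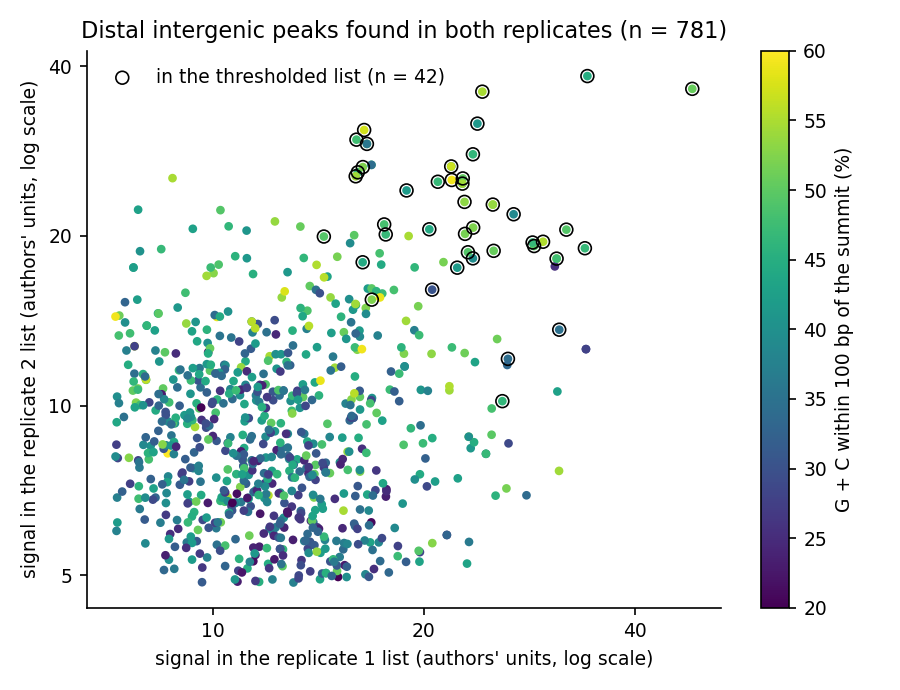
Signal of the 781 distal intergenic peaks found in both replicates, replicate 1 on the horizontal and replicate 2 on the vertical axis, both in the authors' units on log scales. Each point is a peak, coloured by its G and C content, and rings mark the 42 thresholded peaks. Ringed points lie toward higher signal, but some points without a ring are above some ringed ones on both axes. Points of low G and C content lie mostly at low replicate 2 signal.

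Summits of distal peaks were richer in G and C than the DNA around them. Within 100 bp of the summit the median was 36.8% (interval of the median 36.3 to 37.8%, SD 8.90 over 1284 peaks), against 33.8% in the windows 500 bp to either side and 33.8% over 385046 eligible windows. The rise was small for the list as a whole, with 786 peaks (61.2%) above their own flanks. It was large for the 42 thresholded peaks, whose median was 48.5% (range 30.35 to 59.2%) against 34.6% in their flanks, with 39 of 42 above. A rise at thresholded peaks was not limited to distal DNA. The 218 other thresholded autosomal peaks had a median of 44.8% against 37.3% in their flanks, with 168 above. Soft-masked repeats covered 35.6% of the summit windows, 40.03% of the flanks and 41.3% of eligible windows. Promoter window summits (38.3 against 36.1% in flanks), exon summits (43.3 against 36.8%) intron summits (35.8 against 35.6%) and summits at tRNA, snoRNA or snRNA genes (47.3 against 36.1%) gave the other autosomal values.

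**Figure D2:**
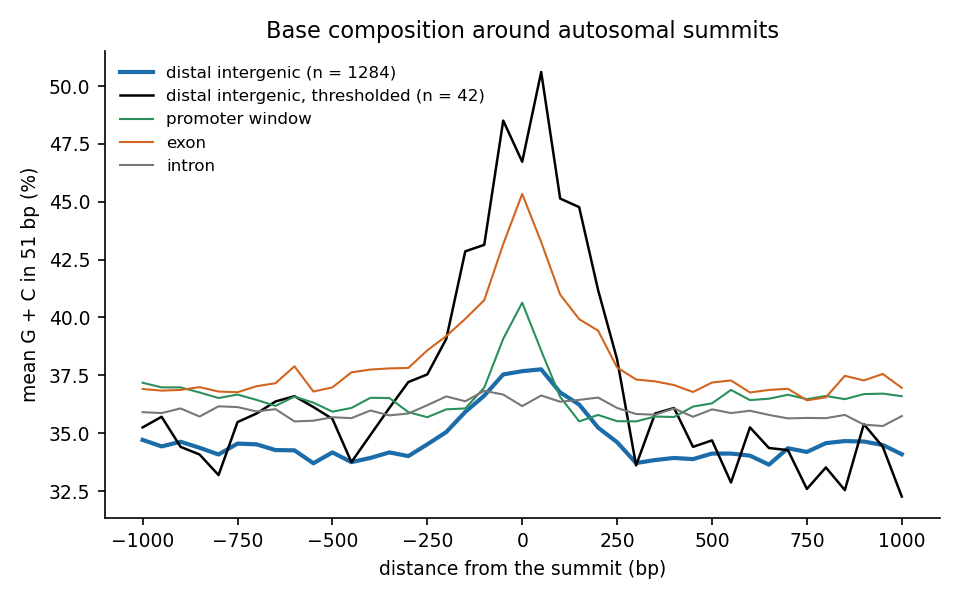
Mean G and C content in windows of 51 bp, in percent, by distance from the summit in bp, for the 1284 distal intergenic peaks, the 42 of them in the thresholded list, and autosomal peaks in promoter windows, exons and introns. Lines are means over peaks. The axis does not start at 0. The thresholded distal peaks reach 46.7% at the summit itself, close to the exon line at 45.3%, and 50.6% at 50 bp to its right, and return to the distal level in the outer part of the range.

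Base composition divided the replicates. Distal peaks matched in replicate 1 alone had a median G and C content of 31.3%, below the eligible windows, and a mean of 44.4% soft-masked bases in their summit windows. Those matched in replicate 2 alone had 40.3% and 30.7%, and those in both 39.3% and 32.9%. The same order held over all autosomal peaks (33.3, 42.3 and 39.8% G and C), so it was not limited to distal DNA. When the strongest 7443 peaks of each replicate were classed by the same rule, replicate 1 gave 1346 distal peaks with a median of 32.8% and replicate 2 gave 1105 with 40.8%. Among the strongest 260 autosomal peaks the distal medians were closer, 45.3% for the 47 of replicate 1 and 48.8% for the 51 of replicate 2.

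In densities, eligible DNA of under 30% G and C held 91.6 distal peaks per Mb among the strongest of replicate 1 and 21.7 among those of replicate 2. At 45% or more the values were 119.2 and 244.5. Replicate 1 thus had maxima at both ends of the scale, and replicate 2 rose from the lowest to the highest bin. The pooled list lay between them, with 55.7 per Mb under 30% (49.7 to 62.2) and 197.5 at 45% or more (175.5 to 221.6), where 7.63% of the eligible bases held 22.6% of the distal peaks. Of the 315 pooled distal peaks under 30%, 47.3% were matched in both replicates, 45.4% in replicate 1 alone and 0 were thresholded. Of the 290 at 45% or more, 75.5% were in both, 7.93% in replicate 1 alone and 30 were thresholded.

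**Figure D3:**
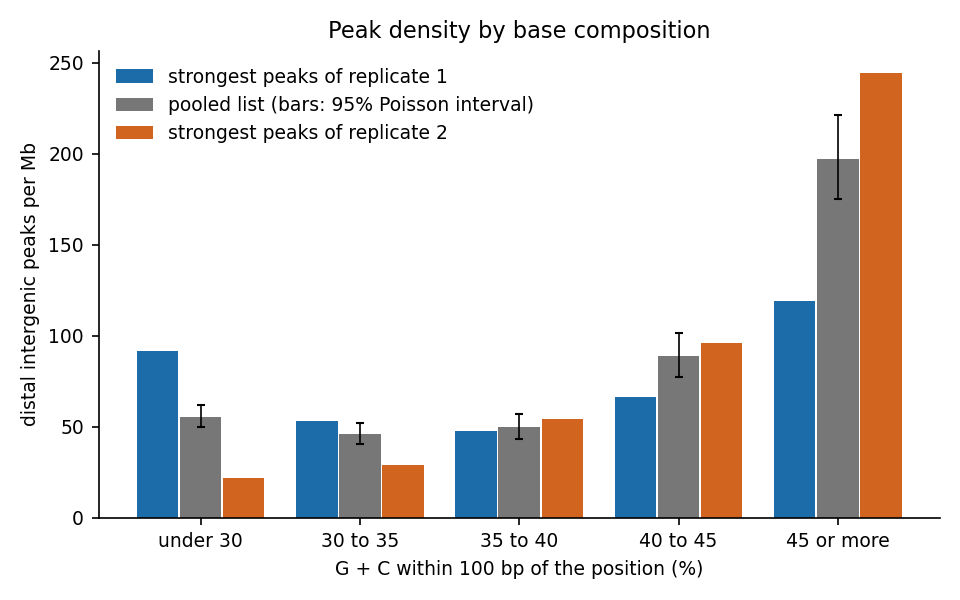
Distal intergenic peaks per Mb of eligible bases, by G and C content within 100 bp in percent, for the pooled list (grey, with exact Poisson 95% intervals) and for the strongest 7443 peaks of replicate 1 (blue) and replicate 2 (orange). Replicate 1 bars are highest at both ends, and replicate 2 bars rise from 21.7 to 244.5.

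Short words of G and A on one strand led those that were more frequent at distal summits than in their flanks, while words of A and T were less frequent, such as AAAATT (60.05 against 70.4%). Among all words of 6 bases on either strand, GAGAGA had the largest gain from flank to summit windows, and it was chosen for that difference, so none of the shares here is a test. It occurred in 312 of 1284 summit windows (24.3%, interval 21.98 to 26.7%), in 12.4% of flank windows and in 10.5% of eligible windows. Next came AGAGAG (21.4 against 10.2% in flanks), AGAGAA (29.3 against 18.5%) and CTTCTC (21.2 against 11.95%), which overlap each other. GAGAGA is the letter string of the GAGA element known from Drosophila. Distal peaks were not alone in it: promoter window summits had 19.4% against 10.9% in flanks, and structural RNA gene peaks 23.9 against 8.81%. The share was 17.8% among the strongest distal peaks of replicate 1 and 26.5% among those of replicate 2.

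The word was more frequent at higher signal. The distal peaks were divided by pooled signal into 5 groups of 256 or 257. In the highest group it was present at 113 of 257 summits (43.97%), and in the following groups at 28.0, 18.8, 17.9 and 12.8%. It was present at 22 of the 42 thresholded summits (52.4%, interval 36.4 to 68.0%). The median G and C content fell over the same groups from 44.3 through 36.8, 36.3 and 34.8 to 33.8%, and the share matched in both replicates from 87.9 to 39.3%. To compare DNA of like composition, the bins above were used. Under 30% G and C the word was at 4.44% of distal summits and 4.73% of eligible windows. From 40 to 45% it was at 36.4 against 17.6%, and at 45% or more at 49.7 against 20.4%. The word was thus more frequent at summits than in eligible DNA of the same bin where G and C were high, and not in the lowest bin.

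Among words of 9 bases the largest gain was that of CTGCGTCTC, again chosen for it, at 73 distal summits (5.69%, interval 4.48 to 7.10%), 1.52% of flank windows and 1.05% of eligible windows. It is no GA repeat. Promoter window peaks held it at 5.03% (1.285% in flanks) and intron peaks at 3.11% (1.35%), while exon peaks did not stand above their flanks (0.521 and 0.991%). It was present at 8 of the 42 thresholded distal peaks, at 12.8% of the highest signal group and at 1.56% of the lowest. At 45% G and C or more it was found at 14.5% of distal summits and 3.93% of eligible windows. The share was 4.16% for replicate 1 and 6.52% for replicate 2. Of the 42 thresholded peaks, 25 held at least one of the 2 words and 17 held neither.

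Over all distal peaks the forkhead core was no more frequent at summits than beside them. RTAAAYA on either strand occurred in 231 of 1284 summit windows (18.0%, interval 15.9 to 20.2%), in 20.3% of the flank windows and in 19.6% of eligible windows. Other autosomal classes had 18.6 against 18.8% in flanks (promoter windows), 15.3 against 14.15% (introns), 8.24 against 13.4% (exons) and 12.6% in both (structural RNA genes). GTAAACA, the form bound by many forkhead factors, occurred at 35 summits (2.73%), in 3.00% of flanks and in 2.56% of eligible windows. Among the thresholded peaks 5 of 42 held RTAAAYA (11.9%, interval 3.98 to 25.6%), and the share was 13.6% in the highest signal group and 21.0% in the lowest. The core is rich in A and T, and its share in eligible DNA fell from 27.3% under 30% G and C to 6.08% at 45% or more. Distal summits had 31.75 and 7.93% in these bins, above eligible DNA of like composition, as also from 35 to 40% G and C (18.3 against 16.1%). From 30 to 35% (18.9 against 22.2%) and from 40 to 45% (10.1 against 10.6%) they were below it, so the bins gave no single direction. Peaks matched in replicate 1 alone held it at 25.75%, those in both at 16.4% and those in replicate 2 alone at 10.4%, the reverse order of their G and C content.

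**Figure D4:**
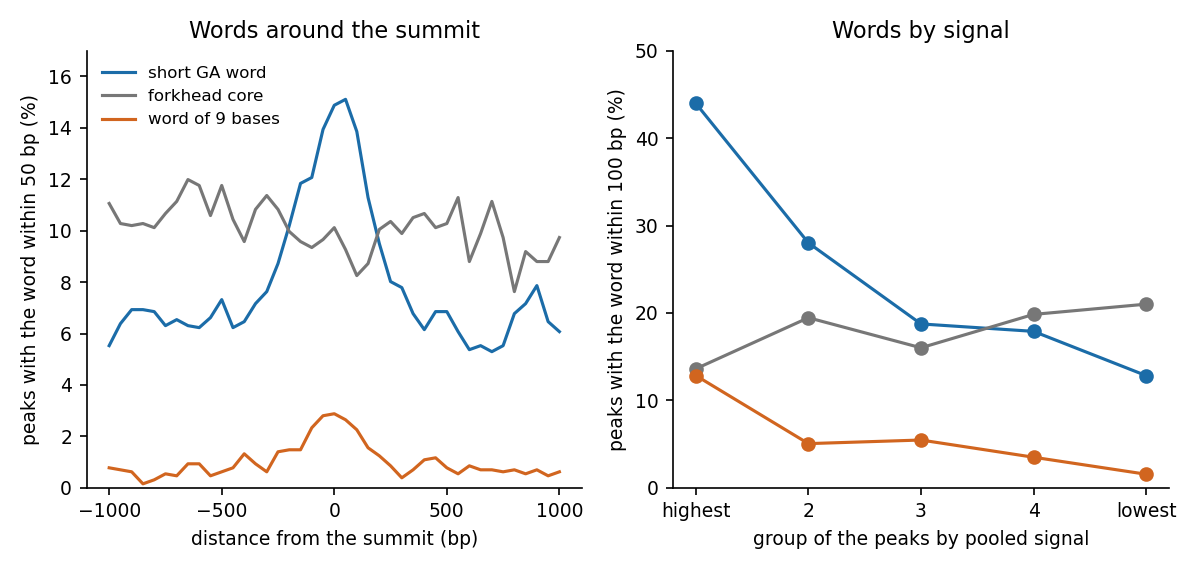
Left, percent of the 1284 distal intergenic peaks with each word within 50 bp of a position, by distance from the summit in bp; right, percent with the word within 100 bp of the summit, in 5 groups by pooled signal. The short GA word is GAGAGA, the word of 9 bases is CTGCGTCTC and the forkhead core is RTAAAYA, each on either strand. The first 2 peak at the summit and fall from the highest to the lowest group, and the core does not peak there.

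Most distal summits, 1128 of 1284, lay in no annotated gene. The other 156 (12.15%, interval 10.4 to 14.1%) lay in a non-coding gene or pseudogene, which cover 15.05% of eligible bases. The classes within them went in opposite directions. Genes annotated as ncRNA, short transcripts of mostly unknown role, held 73 summits (5.69%, 4.48 to 7.10%) on 1.36% of the bases, where 17.5 would lie in proportion. Pseudogenes held 60 (4.67%) on 12.3%, where 157 would lie. The strongest peaks of each replicate gave shares of 2.97 and 6.24% for ncRNA and of 4.755 and 7.78% for pseudogenes, so both directions were present in each. The 73 ncRNA summits had a median G and C content of 48.3%, those in pseudogenes 36.8%, and the part of composition in these counts was not tested.

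At ncRNA genes 59 of the 73 peaks were matched in both replicates, where 60.8% of all distal peaks were, and 5 were thresholded, where 3.27% of all were. The highest was at F58H1.20 (chrV:11953704-11953960), with a pooled signal of 46.44 and 22.73 and 25.28 in replicates 1 and 2, and the next at Y48B6A.23 (chrII:14249642-14249789), with 44.07, 22.90 and 20.16. Genes that overlap on opposite strands, such as F46F3.10 and F46F3.23 under the peak of 36.94 at chrV:11674842, cannot be told apart by a peak. Long intergenic RNA (lincRNA) genes held 17 summits where 10.1 would lie in proportion, led by linc-136 at 36.04. The interval of their share (1.32%, 0.773 to 2.11%) held the 0.790% of eligible bases in these genes. Some of these summits lay in the same gene, such as linc-152 and linc-129, and are not independent. Genes of piRNAs, the small RNAs of the germ line, held 8 where 8.53 would lie, and 73 summits were within 100 bp of one where 71.05 would be, so piRNA genes stood at their share of the bases. For piRNA genes the replicates differed, at 8.32% of the strongest distal peaks of replicate 1 and 2.81% of those of replicate 2.

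By chromosome the distal peaks were sparsest on V, with 271 peaks or 52.8 per Mb (46.7 to 59.5). Chromosome I had 216 (77.1 per Mb, 67.2 to 88.1), III 204 (73.4), II 257 (72.2) and IV 336 (67.4). The interval of V overlapped with no other, and V was also lowest in each replicate taken alone, at 56.7 and 45.98 per Mb, where the others were between 70.8 and 77.8 in replicate 1 and between 54.55 and 68.9 in replicate 2. Chromosomes I to IV had overlapping intervals and cannot be ordered. With each chromosome cut into 3 equal lengths, the middle one held 448 peaks at 76.6 per Mb (69.7 to 84.0), and the parts outside it 836 at 62.3 (58.2 to 66.7). Summed over the autosomes this order held in replicate 1 (78.3 and 66.2) and replicate 2 (66.7 and 53.3). Chromosome by chromosome it was less even. In the pooled list III stood at 72.3 in the middle and 73.9 outside, and in replicate 2 chromosome I stood at 63.5 and 71.2.

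Gaps between convergent genes held the fewest distal peaks per Mb. Between divergent genes, whose 5' ends both face the gap, lay 445 distal peaks at 80.05 per Mb (72.8 to 87.9). Between genes in tandem lay 700 at 68.0 (63.0 to 73.2), and between convergent genes, whose 3' ends face the gap, 139 at 41.2 (34.6 to 48.6). Replicate 1 alone gave 78.6, 71.8 and 50.4 and replicate 2 alone 66.2, 58.8 and 38.8, the same order, although the pooled intervals of divergent and tandem gaps overlap. Median G and C content was 37.3, 37.8 and 33.3%, where eligible DNA had 33.3, 33.8 and 33.8%, and its part in the order was not tested. The thresholded peaks were 19 divergent, 19 tandem and 4 convergent, and the cel-mir-51 and cel-mir-52 peaks are both among the convergent 4. Distance did not separate peaks from other eligible positions. The median to the nearest protein-coding gene was 1824 bp against 1819 bp, that to the nearest 5' end 2895 against 3033 bp, and that of the gap between genes 7518 against 7338 bp.

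**Figure D5:**
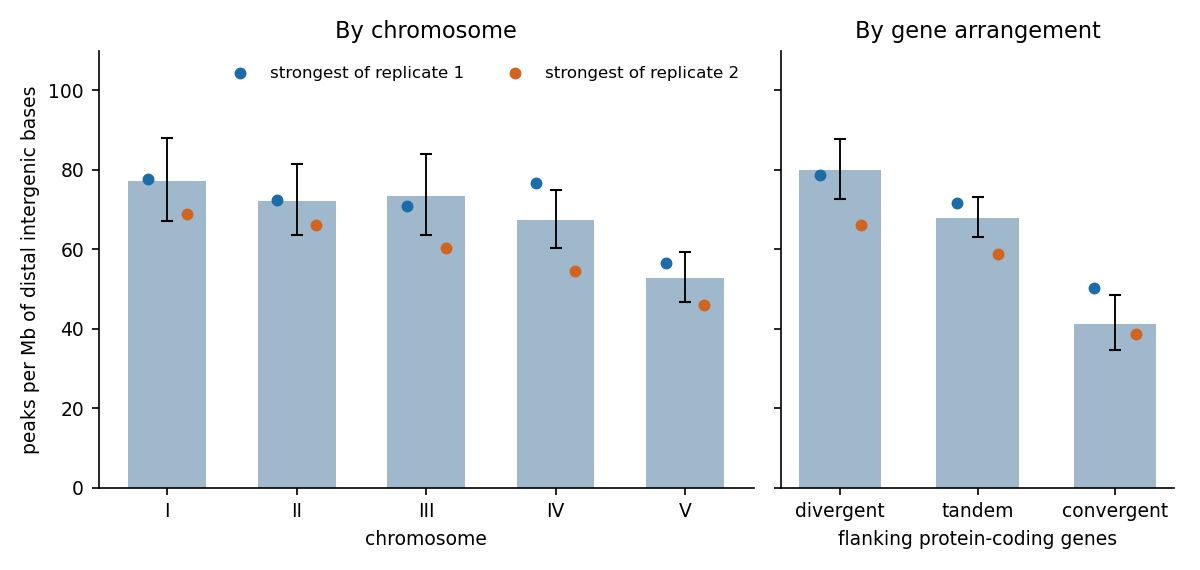
Distal intergenic peaks per Mb of eligible bases by chromosome (left) and by orientation of the flanking protein-coding genes (right). Bars are the pooled list with exact Poisson 95% intervals, and points are the strongest 7443 peaks of replicate 1 (blue) and replicate 2 (orange). Chromosome V and gaps between convergent genes are lowest in each.

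The nearest protein-coding genes were counted in 10 lists by symbol, each set against the share of eligible positions nearest to the same list. Forkhead genes were nearest to 2 distal peaks (0.156%, background 0.153%), fkh-7 with a signal of 18.16 and unc-130 with 17.11. Homeobox genes were nearest to 13 (1.01 against 1.10%, interval 0.540 to 1.725%), with zfh-2 highest, nuclear hormone receptor genes to 32 (2.49 against 1.94%, 1.71 to 3.50%), with nhr-11 highest at 41.19, and F-box genes to 16 (1.25 against 1.63%, 0.714 to 2.02%). Cuticle collagen genes were nearest to 12 (0.935 against 0.582%, 0.484 to 1.63%), with col-83 highest. In these 5 lists the interval held the background. It did so too for histone genes (5 peaks, 0.389 against 0.166%, 0.127 to 0.906%), although all 5 lay by 1 gene, the linker histone gene hil-7.

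Chemoreceptor genes, a large family of sensory receptors, were nearest to 47 distal peaks (3.66%, interval 2.70 to 4.84%) where eligible positions gave 6.95%. C-type lectin genes (5 peaks, 0.389%, interval 0.127 to 0.906%, against 0.978%) and neuropeptide genes (6 peaks, 0.467%, 0.172 to 1.01%, against 1.03%) also lay below. Ribosomal protein genes lay above, with 8 peaks by 5 genes (0.623%, 0.269 to 1.22%, against 0.239%). The lists are small, and peaks by 1 gene are not independent of each other.

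Distal peaks were mostly apart from other distal peaks. Neighbouring distal summits were a median of 36960 bp apart, and when distal summits at most 3 kb apart were joined, 902 of the 1284 stood alone. Peaks of the other classes were not counted as neighbours, and no background spacing was computed. The run with most peaks held 7 over 4.51 kb at chrIV:9052144-9056650, between Y73F4A.1 and nhr-11, a nuclear hormone receptor gene. Its signals ran from 18.23 to 34.75, none was thresholded, all 7 were matched in both replicates, and the median G and C content was low at 30.85%. A thresholded distal peak outside the run, chrIV:9065489 with 41.19 (20.55 and 16.05), lay in the same gap 4514 bp from nhr-11. Runs of 6 lay at chrII:15256114-15263070 between tig-3 and rga-9 (16.20 to 41.21) and at chrII:6824332-6832945 between snt-1, a synaptotagmin gene, and egl-27 (18.13 to 32.12), the latter over a group of ncRNA genes. Runs of 5 lay at chrIV:6647213-6650286 by hil-7 (17.28 to 25.04) and at chrIV:14031176-14036442 around cel-mir-52 (18.98 to 42.25). Peaks of a run can share a replicate peak, and 25 pairs of distal peaks overlap each other.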

How the data were processed

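ChIP-seq of 2 biological replicates was used as peak lists on ce11. The authors called, per the lists of files they deposited, peaks on each replicate and on both pooled, against 1 control. Their label for the pooled list was peaks and background. The deposited signal is the peak height as the authors' caller gave it. Not given in the sources used here: its scale, the aligner and the caller. Signals were therefore compared within a list, and read depth is unknown. Summits came from the deposited offset within each peak, a number of another kind in bp. A replicate's height is that of the highest overlapping peak. Columns of other samples numbered 0, and ce10 lists were not used here.

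Classes came from Ensembl release 115, sequences, repeats and mature miRNAs from the RefSeq genome and annotation of WBcel235. Windows were 201 bp, flanks centred 500 bp away, and eligible windows tiled every 50 bp. The peaks, gene lists and words were chosen with earlier results of these data known, the words and the B box from these summits. Named are the 20 highest peaks with both neighbours, the 5 runs with most peaks, list leaders, and genes singled out after their values were seen. Shares have exact Clopper-Pearson and densities exact Poisson intervals at 95%. Peaks are not replicates, and no test was made. Counting steps were checked on simulated data. Tools were scipy 1.17.1, pandas 2.3.3 and matplotlib 3.10.9 in Python 3.11.15, with numpy 2.4.6.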

Additional observations from a re-analysis of the deposited data

How the results depend on the processing

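Of 76 alternatives to the values given, 59 left the value within its interval (counts within 1.5 times) and 17 moved it, 7 of them by the use of 1 replicate alone. The number of distal peaks ran from 916 with a window of 2000 bp upstream to 1346. Taken from 1 replicate alone, the median G and C content of 36.8% ran from 32.84 to 40.80%, the share in non-coding genes or pseudogenes from 9.73 to 15.75% and the share with RTAAAYA from 14.48 to 19.54%. With 50 bp to either side RTAAAYA was at 10.1%. GTAAACA in its place, with 100 bp to either side, was at 2.73%. In the upper part of the thresholded list by signal, the list cut at its middle, were 0.935% of the distal peaks. An overlap of at least 50% of the peak gave 83.1% for replicate 1, 68.2% for replicate 2 and 13.9% for the strongest of both, and summits within 100 bp gave 75.7, 59.7 and 10.6%. The alternatives for the words were chosen after seeing the data, and GAGAGA moved to 21.1% with the window of 2000 bp and to 17.8% in replicate 1 alone, and CTGCGTCTC to 4.16% in replicate 1 alone. Leaving out every annotated gene sets the share in non-coding genes to 0 by construction, so it gave no value. No paired analysis was possible because the series has 1 group. Read depth is unknown, so which weak peaks could be found in either replicate is not known.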
